A study of Caenorhabditis elegans with 2 samples.

Results

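The histone genes of Caenorhabditis elegans were taken here as the protein-coding genes whose RefSeq names on the WBcel235 (ce11) assembly consist of his- and a number. That rule gave 72 of 19971 nuclear protein-coding genes. By their annotated products they were 17 H2A genes, 16 H2B genes, 15 H3 genes, 16 H4 genes and 5 H3.3 genes, with 2 genes annotated only as carrying a histone domain (his-39 and his-73) and his-24, whose product text gives no type. The study located DAO-5 on the genome by chromatin immunoprecipitation and sequencing (ChIP-seq), pulling down the protein with an antibody to its GFP tag. Every sample came from strain OP252, in which DAO-5 has GFP and FLAG at its C terminus, and whole hermaphrodites at the L4 or young adult stage were used. There was 1 group of 2 biological replicates with a shared control, so no condition could be compared with another and no test was run. The labels do not name the promoter that drives the tagged gene, and an untagged strain was not analysed here. Whole animals mix all tissues, so strong binding in few cells and weak binding in many cannot be told apart.

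Histones are the proteins around which DNA is wound: H2A, H2B, H3 and H4 form the core of the nucleosome, and linker histones sit on the DNA between cores. Core histone genes are transcribed mainly while DNA is copied, and in worms many of them lie head to head, an H2A gene beside an H2B gene or an H3 gene beside an H4 gene, with 1 short promoter stretch between them. H3.3 is a variant of H3 that is made and deposited outside DNA replication, and in L4 and young adult hermaphrodites most dividing cells belong to the germ line. DAO-5 itself is related to Nopp140 of other animals, a nucleolar protein linked to the making of ribosomes.

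The 72 genes fell into 19 clusters, with neighbours joined when at most 10 kb lay between them, and 31 head-to-head pairs held 62 of them. Of these pairs 16 were H2A with H2B, 14 were H3 with H4 and 1 was H2A with H4. Their annotated starts lay 227 to 368 bp apart, with a median of 258 bp. Of the 72 genes, 66 were annotated from the start codon to the stop codon only, so a start here is mostly a start codon and not a mapped transcription start.

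The stretches at the centre of the results were read from the RefSeq genome on the plus strand of ce11, and are printed in lower case with matches of the C-rich motif CTCCNCC on either strand in capitals. The first lies between the starts of his-35 (H2A) and his-41 (H2B), chrV:9545289-9545535, and held a pooled summit. The next is the region before his-37 (H4), chrV:9546842-9547104, with the strongest pooled peak at a histone promoter. Another pair of stretches lies between H4 and H3 genes and held no pooled summit, although the thresholded peak counted for his-59 is close by. These are chrIV:7487993-7488248 for his-60 and his-59, and chrX:7309876-7310109 for his-38 and his-40. The last 2 stand for promoters present in several identical copies and without a summit in any list. The stretch between his-12 and his-11, chrII:13821582-13821808, occurs in 3 histone pairs, and the one between his-51 and his-52, chrV:8850172-8850463, in 4.
his-35/his-41: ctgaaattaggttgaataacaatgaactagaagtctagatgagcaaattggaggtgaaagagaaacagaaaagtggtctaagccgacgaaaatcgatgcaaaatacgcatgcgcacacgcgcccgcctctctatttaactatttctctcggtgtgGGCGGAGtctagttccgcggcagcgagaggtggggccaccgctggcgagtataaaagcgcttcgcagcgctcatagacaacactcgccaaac
his-37 upstream: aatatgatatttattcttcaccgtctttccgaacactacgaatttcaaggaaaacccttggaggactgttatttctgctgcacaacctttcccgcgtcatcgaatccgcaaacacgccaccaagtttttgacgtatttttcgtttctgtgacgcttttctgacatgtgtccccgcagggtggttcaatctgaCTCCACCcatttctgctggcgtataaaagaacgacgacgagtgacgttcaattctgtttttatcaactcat
his-60/his-59: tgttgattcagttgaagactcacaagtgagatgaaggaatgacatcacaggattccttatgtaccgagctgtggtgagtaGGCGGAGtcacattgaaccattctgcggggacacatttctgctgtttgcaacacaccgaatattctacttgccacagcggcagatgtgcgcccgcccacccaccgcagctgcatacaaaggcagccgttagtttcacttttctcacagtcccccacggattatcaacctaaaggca
his-38/his-40: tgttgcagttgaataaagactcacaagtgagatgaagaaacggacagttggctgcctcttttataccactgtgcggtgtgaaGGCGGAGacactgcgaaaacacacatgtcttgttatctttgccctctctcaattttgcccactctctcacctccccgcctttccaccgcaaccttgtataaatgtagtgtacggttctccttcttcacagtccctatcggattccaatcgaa
his-12/his-11: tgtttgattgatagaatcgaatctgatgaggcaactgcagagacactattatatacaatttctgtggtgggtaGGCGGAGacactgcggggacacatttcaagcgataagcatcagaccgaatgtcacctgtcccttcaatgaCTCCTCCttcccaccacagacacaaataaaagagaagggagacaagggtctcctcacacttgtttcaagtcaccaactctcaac
his-51/his-52: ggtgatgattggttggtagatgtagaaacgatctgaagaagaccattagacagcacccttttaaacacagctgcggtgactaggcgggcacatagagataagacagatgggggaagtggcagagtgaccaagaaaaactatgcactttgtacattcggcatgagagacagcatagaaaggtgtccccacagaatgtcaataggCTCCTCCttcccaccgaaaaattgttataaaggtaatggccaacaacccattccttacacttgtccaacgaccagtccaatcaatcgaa

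Each gene was described by the strongest DAO-5 summit from 1000 bp upstream to 200 bp downstream of its start, in 4 lists. The authors called 23091 peaks in replicate 1, 21273 in replicate 2 and 16687 in the pooled reads, and their list thresholded for reproducibility held 549. Signal is the authors' value for a peak, on a scale that is not stated. Its median was 11.5 in replicate 1, 10.95 in replicate 2 and 21.3 in the pooled list, so replicate values are read only against their own list. The thresholded median was 65.6. Thresholded peaks at histone genes carried their pooled values, and the highest nuclear signal was 257.9 in both lists, so these lists are read on 1 scale. Rank 1 is the strongest peak of a list. Sequencing depth is unknown.

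Of the 72 histone genes, 2 (2.78%) had a summit in the thresholded list, his-37 and his-59, beside 1.22% of all nuclear protein-coding genes. In the pooled list 15 histone genes (20.8%) had one, beside 23.7% of all genes. In replicate 1 the count was 15 (20.8%), beside 28.5% of all genes. In replicate 2 it was 21 (29.2%), beside 29.1% of all genes. A summit in each replicate list was present at 12 histone genes (16.7%), beside 15.1% of all genes. The pooled, replicate 2 and both-replicate shares of the histone genes thus lay within a few percentage points of those of all genes. Of the replicate lists, replicate 1 alone had a summit at a further 3 histone genes (4.17%), beside 13.3% of all genes, and replicate 2 alone at 9 (12.5%), beside 14% of all genes. At least 1 of the 4 lists had a summit at 24 histone genes (33.3%), beside 43.1% of all genes, which left 48 with none. Where both replicates had one, the strongest peaks of the replicates overlapped by at least 1 bp at 9 of 12 histone genes (75%), beside 79.1% of 3024 such genes overall.

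**Figure D1:**
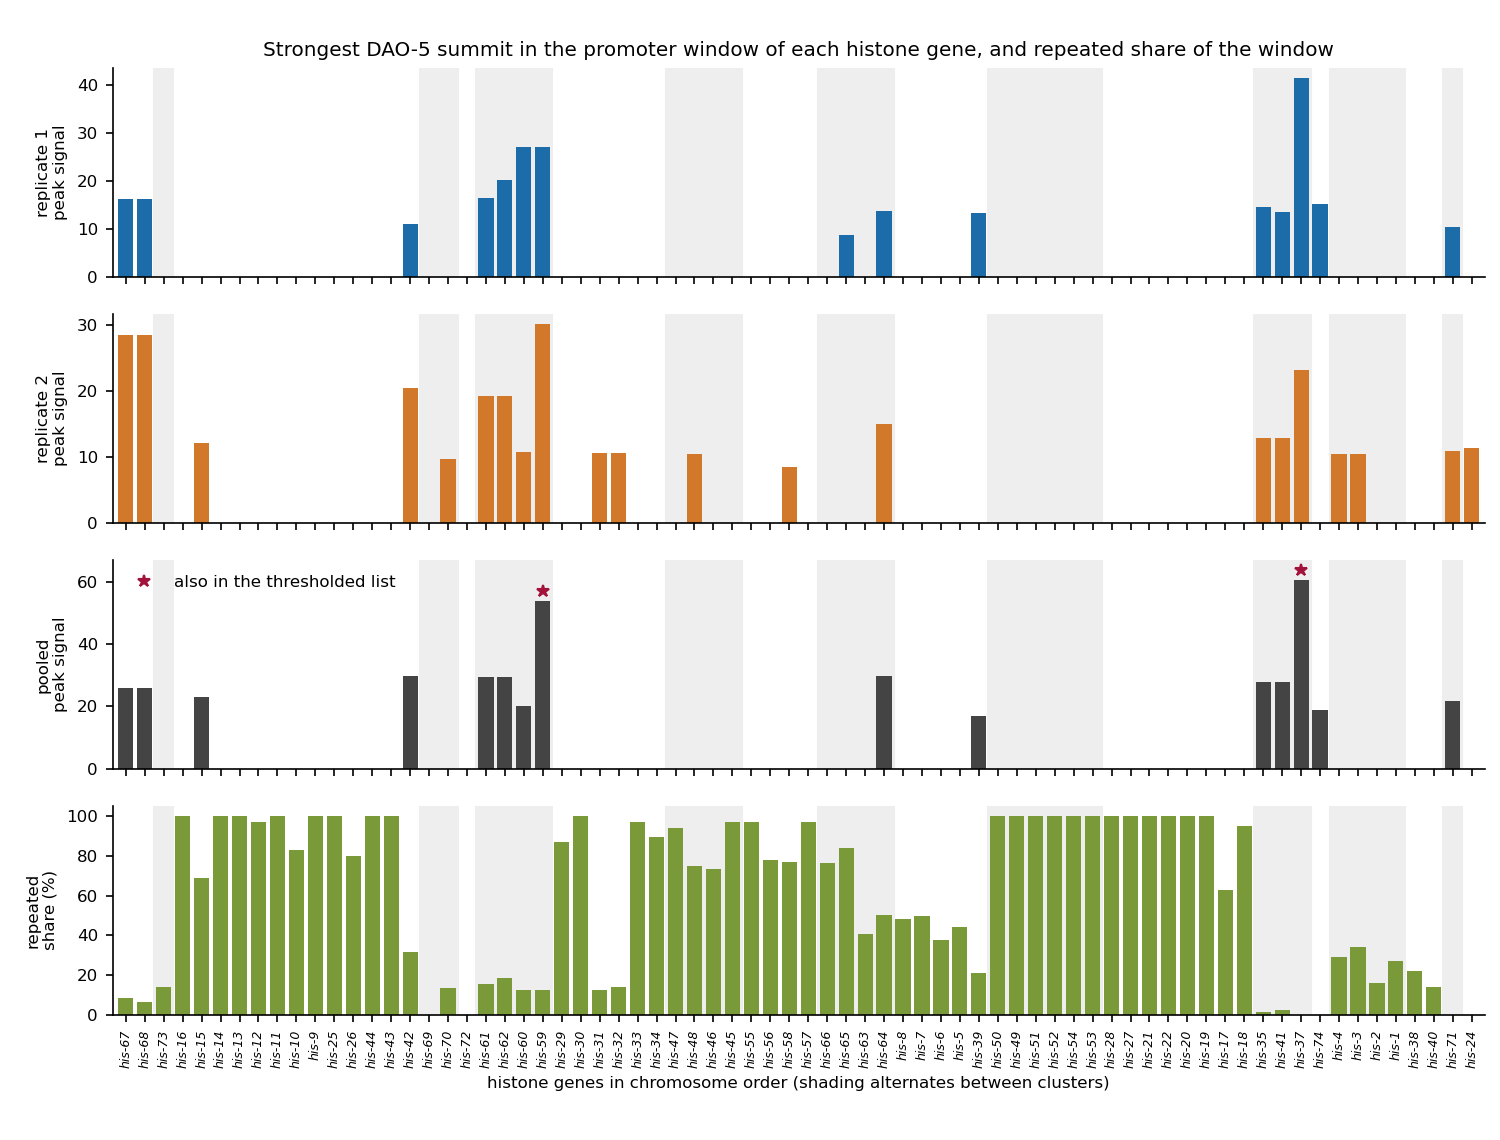
Signal of the strongest summit in the promoter window of each of the 72 histone genes in replicate 1, replicate 2 and the pooled list (vertical axes, authors' signal, each list on its own scale), with the repeated share of the window in percent below; genes run along the horizontal axis in chromosome order, shading alternates between clusters, and a missing bar means no summit. The stars mark his-37 (60.7) and his-59 (54.0), and 57 genes have no bar in the pooled panel.

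The H4 gene his-37 carried the strongest peak at a histone promoter in the pooled, thresholded and replicate 1 lists, but not in replicate 2, where his-59 and the pair his-67 and his-68 had stronger ones. Its signal was 41.5 in replicate 1 and 23.1 in replicate 2, and 60.7 in the pooled list. These placed it at rank 180 in replicate 1, 913 in replicate 2 and 345 in the pooled list, where it was stronger than 97.9% of peaks. The gene stands outside the head-to-head pairs, has an intron, and its pooled peak covered chrV:9546744-9547173, with the summit 146 bp before the start and between his-37 and C50F4.6. The summits of both replicates lay on the same side of the start, at -70 and -154 relative to it. Both fall in the his-37 stretch printed above, none of which occurs elsewhere in the genome.

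The H3 gene his-59 had the other thresholded summit, with a signal of 27.03 in replicate 1, 30.1 in replicate 2 and 54.0 in the pooled list. It ranked 689, 423 and 486 in these lists in that order. The weakest thresholded peak had a signal of 51.8, so his-59 stood just above the end of that list, and the next histone gene, his-42, had 29.9 in the pooled list. The his-59 summit lay at -549, and this is not within the stretch it shares with his-60. It fell 292 bp inside the neighbouring H4 gene his-60, which is too far into that gene for the promoter window of his-60 itself. The peak covered chrIV:7487485-7487914, and its part within the his-60 coding sequence, chrIV:7487681-7487914, is printed here because the summit lies in it, at base 20 of 234. Capitals mark bases within 36-base stretches that occur elsewhere in the genome, 61.97% of this run, and the summit itself lies in such a stretch. The plus strand is shown, so his-60 reads from right to left and its stop codon is at the left end.
his-60 coding part of the his-59 peak: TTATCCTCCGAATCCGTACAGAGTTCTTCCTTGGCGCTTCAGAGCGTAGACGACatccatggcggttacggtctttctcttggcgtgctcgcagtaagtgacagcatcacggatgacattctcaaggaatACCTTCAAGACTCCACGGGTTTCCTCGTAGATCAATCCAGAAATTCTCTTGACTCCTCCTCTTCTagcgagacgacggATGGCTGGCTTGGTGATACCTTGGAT

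The genes around these 2 summits also carried weaker ones. On chromosome IV the 4 genes his-61, his-62, his-60 and his-59 lie within 2826 bp, and all 4 had a summit in the pooled list and in each replicate list. With 5 pooled peaks inside it, 63.1% of that cluster was covered. The H2A gene his-61 and the H2B gene his-62 shared a pooled peak of 29.4, whose summit lay 112 bp inside his-61. In replicate 1 the strongest summit was 16.5 for his-61 and 20.2 for his-62, and in replicate 2 they shared one of 19.2 between their starts. The summit of 20.2 lay beyond the far end of his-61. For his-60 the strongest signals were 27.03 in replicate 1, 10.7 in replicate 2 and 20.1 in the pooled list. The 27.03 is the replicate 1 peak already given for his-59, with its summit 168 bp inside his-60. It overlaps the replicate 2 peak of 30.1 given for his-59. That summit lay 268 bp inside his-60, beyond the 200 bp limit of the his-60 window. The 10.7 in replicate 2 and the 20.1 in the pooled list belong to other peaks, with summits within his-59.

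On chromosome V the genes his-35, his-41 and his-37 lie within 2949 bp, and all 3 had a summit in both replicates and in the pooled list. The H2A gene his-35 and the H2B gene his-41 shared a pooled peak of 27.7 at rank 3602, with its summit 66 bp before his-41 and inside the stretch printed above. In replicate 2 both had the same summit of 12.9 between their starts. In replicate 1 the strongest summit was 14.5 for his-35, at -931, where his-41 and the gene C50F4.6 overlap and the start of C50F4.6 was nearest, 127 bp away, and 13.5 for his-41, 22 bp before its start. Both thresholded summits at histone genes lay in the 2 clusters of more than 2 genes in which every member had a summit in each of the longer lists. This is partly set by the counting, since thresholded peaks are also pooled peaks and neighbours share peaks. The pair his-67 and his-68 and the single gene his-71 also had a summit at every member in these lists.

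**Figure D2:**
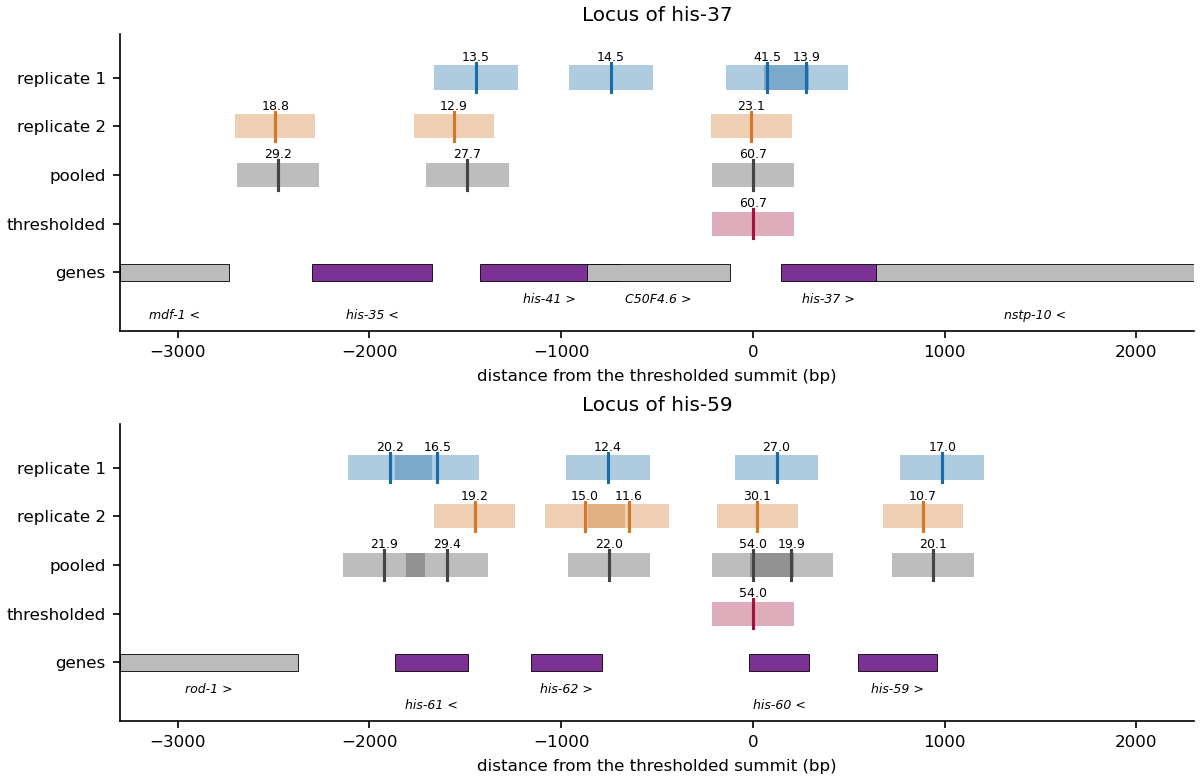
Peaks (boxes), summits (vertical lines with the authors' signal above) and protein-coding genes (histone genes in purple, arrowheads giving the strand) around the thresholded summits of his-37 and his-59, by list, with the distance from the thresholded summit in bp on the horizontal axis. The his-37 summit (60.7) lies just before the gene, while the his-59 summit (54.0) lies at the far end of his-60.

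The remaining H3 and H4 genes with a pooled summit were his-42, his-64 and his-67. The H3 gene his-42 had 10.96 in replicate 1, 20.4 in replicate 2 and 29.9 in the pooled list, with the pooled summit 858 bp before its start. Both pooled peaks in its window lay within 200 bp of a small RNA gene, the snRNA gene F08G2.10, so these peaks cannot be told apart from peaks of that gene. The H4 gene his-64 had 13.7 in replicate 1, 14.9 in replicate 2 and 29.7 in the pooled list, at -780, and the start of its partner his-63 was nearer to that summit, 525 bp away. In each of these lists the summit lay beyond the far end of his-63, and not between the starts of the pair. The H4 gene his-67 and the H2A gene his-68 on chromosome I, the 1 pair of these types, had 16.3 in replicate 1, 28.5 in replicate 2 and 25.9 in the pooled list. Their ranks were 3941 and 499 in the replicates, and the strongest summit lay 19 bp from the start of his-68 in replicate 1 and 30 bp from the start of his-67 in replicate 2. The pooled list held both places as separate peaks, of 25.9 and 21.1.

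Summits at the remaining core histone genes were weak or seen in 1 replicate. The H2B gene his-15 had 12.1 in replicate 2, none in replicate 1 and 23.0 in the pooled list, at -960 within the gene ZK131.11. Its summits lay beyond the far end of the partner his-16. Only in replicate 2 were summits listed at his-31 and his-32 (10.5, shared), his-3 and his-4 (10.5, shared), his-48 (10.4) and his-58 (8.41). Only in replicate 1 was one listed at his-65 (8.81). The his-48 and his-65 summits lay beyond the far ends of their partners, his-47 and his-66. The lowest signal in any replicate list was 8.41 in replicate 1 and 8.14 in replicate 2, so several of these stood at the weak end of their list.

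Of the 5 H3.3 genes, 2 had a pooled summit. At his-71 the signal was 10.3 in replicate 1, 10.9 in replicate 2 and 21.7 in the pooled list, 63 bp inside the gene. At his-74 it was 15.2 in replicate 1 and 18.7 in the pooled list with none in replicate 2, and the start of another gene, W05B10.3, was nearer to that summit. In the windows of the other H3.3 genes, his-70 had 9.72 in replicate 2 alone, and his-69 and his-72 had none in any list. The histone-domain gene his-39 had 13.3 in replicate 1 and 16.9 in the pooled list, and his-73 had no summit. The gene his-24, known as a linker histone H1 gene, had 11.3 in replicate 2 alone.

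No histone type stood clear of the others in these counts. Pooled summits were present at 4 of 16 H4 genes, 2 of 15 H3 genes, 3 of 17 H2A genes and 3 of 16 H2B genes. In replicate 2 the counts were 5 of 16 for H4, 3 of 15 for H3, 4 of 17 for H2A and 6 of 16 for H2B. The 15 genes with a pooled summit had 12 different strongest peaks, since head-to-head partners share windows, and 17 pooled peaks lay in histone windows in all. For 16 of these 17 the nearest protein-coding start was that of a histone gene, which is largely set by choosing peaks in histone windows. The strongest pooled summit lay within 300 bp of the start at 8 of 15 histone genes (53.3%), beside 50.7% of 4729 genes overall. The median signal of the strongest pooled summit was 27.7 at histone genes, 29.9 at cytosolic ribosomal protein genes and 22.7 at all genes that had one.

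Cytosolic ribosomal protein genes, which encode the protein part of the ribosome and are also a large family with high output, had summits more often in every list. In the pooled list a summit was present at 15 of 72 histone genes (20.8%), against 56 of 78 ribosomal protein genes (71.8%). In both replicates it was 12 of 72 (16.7%), against 47 of 78 (60.3%), and in the thresholded list 2 of 72 (2.78%), against 9 of 78 (11.5%). Much of the sequence of many histone windows has copies elsewhere in the genome, unlike that of the ribosomal protein windows. Shares for the windows with few copies lie closer together and are given below. The strongest pooled signal was 60.7 at a histone gene, his-37, and 149 at a ribosomal protein gene, rpl-3. The other ribosomal protein genes in the thresholded list were rpl-15, rpl-18A, rpl-35, rps-19, rps-26, rps-24, rpl-10a and rps-16, and of these rpl-10a (56.0) and rps-16 (55.8) had lower signals than his-37.

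**Figure D3:**
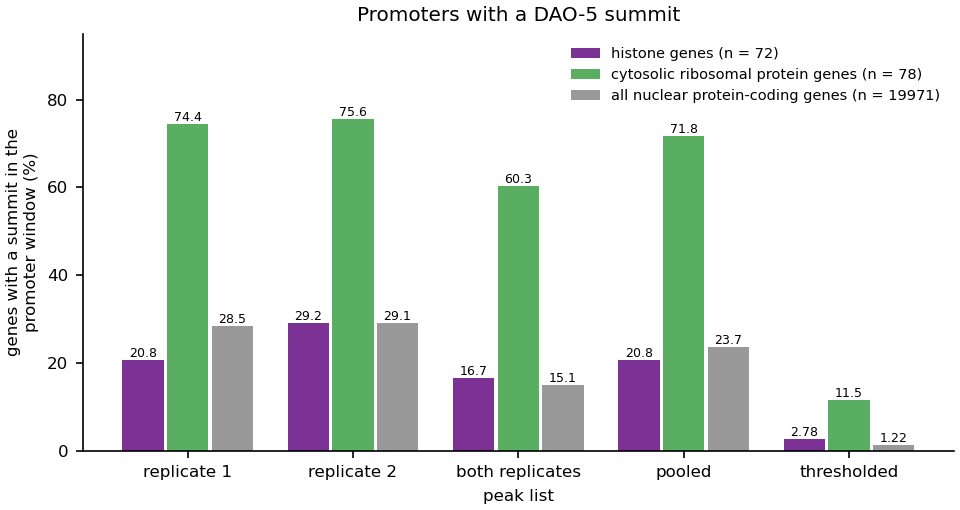
Percent of genes with at least 1 summit in the promoter window (vertical axis) for the histone genes, the cytosolic ribosomal protein genes and all nuclear protein-coding genes, by peak list (horizontal axis). The histone bars (2.78 to 29.2%) stand below those of the ribosomal protein genes (11.5 to 75.6%) in each list, and in replicate 1 also below that of all genes (20.8 and 28.5%).

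Histone promoters differed from most promoters in how much of their sequence has copies elsewhere. The repeated share was taken as the percent of positions in the promoter window that begin a 36-base stretch found more than once in the genome. Its median was 75.4% for histone genes and 0% for ribosomal protein genes and for all genes, and 20 of the 72 histone windows were repeated throughout. The 15 histone genes with a pooled summit had a median repeated share of 12.2%, against 89.7% for the 57 without one. The treatment of reads with several possible places is not stated in the notes or labels, so in repeated windows a lack of binding and a lack of reads that can be placed cannot be told apart.

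The share of histone genes with a summit was then read within strata of the repeated share, which were chosen after the data were seen. Of the 22 histone genes with at most 25% of the window repeated, 12 (54.5%) had a pooled summit, beside 24.9% of 18644 such genes overall and 55 of 77 such ribosomal protein genes (71.4%). Those 12 genes had 9 different strongest peaks. In the thresholded list the count was 2 of 22 (9.09%), beside 1.29% of such genes overall and 9 of 77 such ribosomal protein genes (11.7%). In both replicates it was 10 of 22 (45.5%), beside 16% of such genes overall and 46 of 77 such ribosomal protein genes (59.7%). Between 25% and 75% repeated the count was 3 of 14 histone genes in the pooled list (21.4%), beside 7.58% of 1003 genes overall. Over 75% repeated the pooled count was 0 of 36, beside 0.617% of 324 such genes overall. In that last stratum replicate 1 listed 1 histone gene, his-65, and replicate 2 listed 1, his-58.

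**Figure D4:**
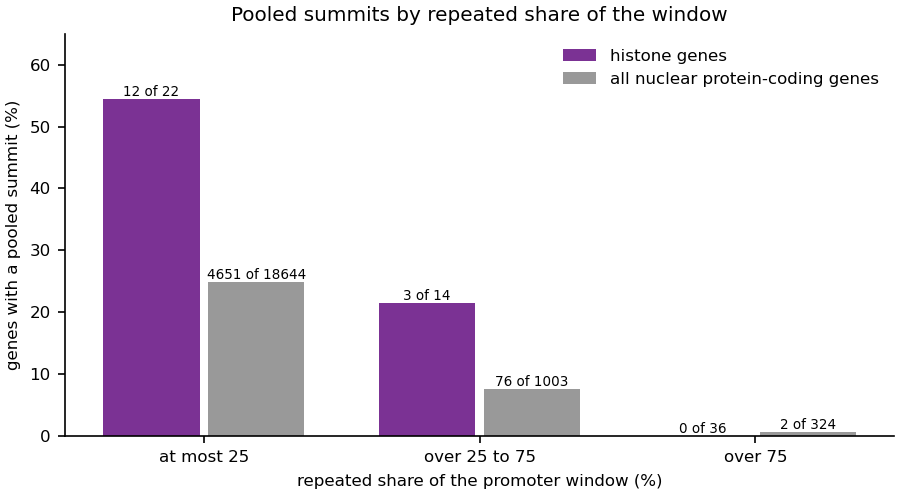
Percent of genes with a pooled summit (vertical axis) for the histone genes and all nuclear protein-coding genes, by the repeated share of the promoter window (horizontal axis), with the counts above the bars. The histone bar stands at 12 of 22 genes where at most 25% is repeated and at 0 of 36 where over 75% is.

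Among the 22 histone genes with at most 25% of the window repeated, 16 (72.7%) had a summit in at least 1 list, beside 45.1% of such genes overall. No summit in any list was present at 6 of the 22, beside 10227 of 18644 such genes overall. These 6 were his-2, his-38, his-40, his-69, his-72 and his-73. The H4 and H3 genes his-38 and his-40, whose between-start stretch is printed above and has no base in a repeated stretch, were a whole pair of this kind. Histone genes with an intron were mostly of the little-repeated kind. The 8 genes with more than 1 exon were his-72, his-57, his-35, his-41, his-37, his-74, his-71 and his-24. A pooled summit was present at 5 of these 8, with a median repeated share of 0%, and at 10 of the 64 genes with 1 exon, with a median of 78.9%. The pooled share was 23.7% of all genes and 24.9% of those with at most 25% of the window repeated. Shares by exon number were not computed over all genes. Exon number and repeated share move together here, and their parts in these counts were not tested.

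The largest histone clusters lay in stretches free of peaks. On chromosome V, 14 histone genes, from his-50 to his-18 along the chromosome, lay in a run of 93682 bp (chrV:8812139-8905820) with no peak in the pooled list or either replicate list. Of 30961 such runs between peaks on the nuclear chromosomes only 2 were that long or longer, and the median run was 1431 bp. Repeated sequence made up 90.9% of it, and of the 14 other protein-coding genes in it 12 had windows over 75% repeated. On chromosome II, 13 histone genes from his-16 to his-42 lay in a run of 11406 bp (chrII:13817666-13829071) that was 89.0% repeated, and 3.3% of runs were as long. The summits counted for his-15 and his-42 lie just beyond the ends of that run.

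Summits between the starts of head-to-head histone genes were few. In the pooled list 2 of 31 histone pairs (6.45%) had one, his-67/his-68 and his-35/his-41, beside 22.4% of 2551 head-to-head pairs of protein-coding genes. The starts of most other pairs lie farther apart, and among the 321 pairs with starts 227 to 368 bp apart the share was 19.9%. Both the 2551 and the 321 pairs include the 31 histone pairs. Replicate 1 had a summit in 1 histone pair, his-35/his-41. Replicate 2 had one in 5, which were his-67/his-68, his-61/his-62, his-31/his-32, his-35/his-41 and his-4/his-3. By type the pooled count was 1 of 16 H2A and H2B pairs, 0 of 14 H3 and H4 pairs and the 1 pair of H2A with H4.

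Copies among the between-start stretches limit how many separate promoters these are. The 31 pairs had 21 different sequences, of which 6 occurred in more than 1 pair and together covered 16 pairs. The stretch between his-51 and his-52 was the same as those of his-54/his-53, his-21/his-22 and his-20/his-19, and that between his-12 and his-11 was the same as those of his-16/his-15 and his-44/his-43. Of the 11 pairs with at most 25% of the stretch repeated, 2 (18.2%) had a pooled summit. This is close to the 19.9% of pairs with starts as far apart, histone pairs included. Of the 20 pairs with more than 75% repeated, 0 had one in any list.

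The between-start stretches had sequence in common. The motif CTCCNCC, the core of a C-rich element described in promoters of worm core histone genes, was searched on both strands because of that earlier description. It was found in 31 of 31 histone between-start stretches, which held 21 different sequences. Among the 321 pairs with starts as far apart, 63 (19.6%) had it. These 63 include the 31 histone pairs, so the 19.6% is not a share of other pairs alone. The motif was thus present in pairs with a summit (his-35/his-41) and in pairs without one (his-38/his-40). Since every pair has it, it cannot set these pairs apart. In windows of 250 bp before to 50 bp after the start it was found at 66 of 72 histone genes (91.7%), beside 13.7% of all genes, and in the full promoter windows the genes without it were his-73, his-69, his-70, his-39 and his-74. The GC box GGGCGG, which can overlap CTCCNCC read on the other strand, was found in the shorter windows of 41.7% of histone genes and 7.84% of all genes. In these shorter windows the TATA box TATAAA was found at 65.3% of histone genes and 38% of all genes, and GAGAGA at 45.8% and 21.8%. In the full promoter windows the shares were closer, 90.3% and 80% for TATAAA and 56.9% and 50.9% for GAGAGA. Less frequent at histone genes in the shorter windows were the E-box CACGTG (1.39%, beside 5.85% of all genes), the tRNA B box core GTTCGA (4.17%, beside 10%) and TTTCAG, the usual end of a worm intron (11.1%, beside 52.2%). A match is a description of the sequence and does not show a site in use, and genes that share a promoter share its matches.

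**Figure D5:**
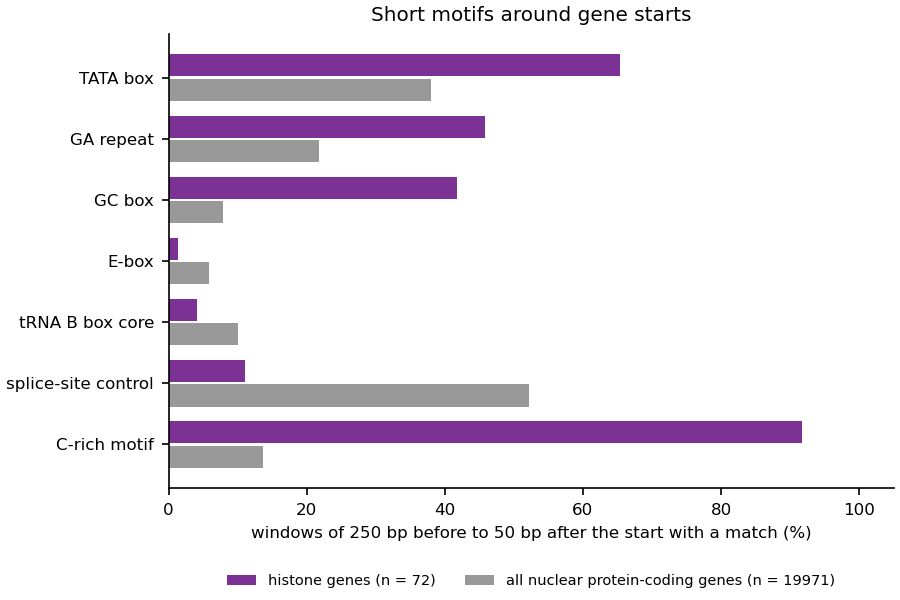
Percent of windows from 250 bp before to 50 bp after the start with at least 1 match on either strand (horizontal axis) for 7 short motifs, in the 72 histone genes and in all nuclear protein-coding genes. The C-rich motif is found at 91.7% of histone genes and 13.7% of all genes, and the splice-site control at 11.1% and 52.2%.

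Genes related to the histones but outside the name rule were read beside both all 72 histone genes and the 22 with at most 25% of the window repeated. Of 11 genes for linker histones and other variants, 0 had a thresholded summit and 5 (45.5%) a pooled one, beside 20.8% of all histone genes, 54.5% of the little-repeated ones and 23.7% of all genes. Each of the 11 had at most 14.3% of its window repeated. The H2A.Z gene htz-1 had the highest signal of them, 21.2 in replicate 1, 23.0 in replicate 2 and 42.0 in the pooled list. The linker histone genes hil-2 and hil-7 followed with 28.0 each in the pooled list. For hil-2 the signal was 10.1 in replicate 1 and 18.3 in replicate 2, and for hil-7 it was 14.3 and 13.8. Of 14 genes for histone supply and deposition, 0 had a thresholded summit and 8 (57.1%) a pooled one. Of all genes, 1.22% had a thresholded summit and 23.7% a pooled one. Only unc-85 among the 14 had over 25% of its window repeated, at 27.6%. Among these lin-53, which encodes a histone-binding protein of several chromatin complexes, had 24.9 in replicate 1, 21.4 in replicate 2 and 45.7 in the pooled list. The gene of the histone chaperone ASF1, unc-85, had 17.9, 24.4 and 42.9 in these lists in that order, and xnp-1, the worm relative of ATRX, had 18.2, 19.3 and 29.6. All 6 had summits in both replicates, and their pooled signals were below the 60.7 and 54.0 of his-37 and his-59. The strongest xnp-1 summits were not at the same place, at -807 in replicate 1, -27 in replicate 2 and -792 in the pooled list. With so few genes in each list these shares are given as counts only.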

How the data were processed

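Peaks were called by the authors from ChIP-seq reads of each replicate and of both replicates pooled, each with the same control, and the thresholded list was derived from those 3 lists, per the notes deposited with the files. Each peak carries a signal value deposited by the authors, whose scale is not stated, and it served for ranks and descriptions inside each list only. The −log10 column and the lists on the older build ce10 were not used. Not given in the sources used here were the aligner, the peak caller, the reproducibility threshold, the sequencing depth and the treatment of reads with several possible places. The notes also list tracks of unique reads, but do not say whether peaks were called from such reads.

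Replicates were named by the number in the labels. Genes, types and sequences came from RefSeq WBcel235 (ce11), and coordinates are 1-based. A gene counted when a summit lay from 1000 bp upstream to 200 bp downstream of its start. Clusters joined genes at most 10 kb apart, and head-to-head pairs had starts at most 2000 bp apart with no other protein-coding start between. Members, related lists and motifs were chosen with earlier results of these data known. The strata of the repeated share, the shorter motif window and the reference of pairs with starts as far apart were added after the data were seen. Named genes are those in the thresholded list, the 12 with the highest pooled signal, the highest 2 of each type, those among the 549 strongest peaks of a replicate, and genes sharing a promoter or peak with them, with others named by cluster or to complete a count of 5 or fewer. In related lists the names are those in the thresholded list and the highest 3. Counts were tested on simulated data with planted summits and repeats. Alternatives changed the window, the overlap rule, the number of peaks kept, the replicates and the stretch length. Python 3.11.15, numpy 2.4.6, pandas 2.3.3 and matplotlib 3.10.9 were used.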

Additional observations from a re-analysis of the deposited data

How the results depend on the processing

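Of 33 alternative values, 25 stayed within 1.5 times the reported count or repeated share, or within 1 SD between replicates of the median signal, and 8 moved further. With a window from 500 bp upstream, the 2 thresholded histone genes became 1, since the his-59 summit lies at -549, and the 17 distinct pooled peaks became 8. Among the thresholded peaks above the middle rank there were 0. Leaving out 1 replicate, and taking as many strongest peaks of the other, gave 1 to 3, with 1 without replicate 2 (his-37) and 3 without replicate 1 (his-59, his-67 and his-68). Among the 2000 strongest pooled peaks 2 histone genes had a summit, against 15 among all, and with the 5000 strongest peaks of each replicate 6 had one in both, against 12. Fewer peaks were counted in these by construction. The median signal of 27.7 became 12.1 to 15.2 with 1 replicate left out, where the replicate lists have a lower scale. Restricting the counts to windows at most 25% repeated, an alternative chosen after seeing the data, gave 2, 12 and 10 genes in the thresholded, pooled and both replicate lists. With stretches of 30 or 50 bases, 37 or 35 histone windows were over 75% repeated, and 0 of them had a pooled summit. No paired analysis was possible because there was 1 group. With 2 replicates, unknown depth and no read counts, a weak peak and no peak cannot be separated at single genes.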

Other observations

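Some histone genes had summits within the gene but outside their own promoter window. The H3.3 gene his-72, which had no summit in its promoter window in any list, had one inside the gene with a signal of 15.02 in replicate 1, 19.5 in replicate 2 and 30.2 in the pooled list. The pooled summit lay 674 bp from its start and was stronger than 83.8% of pooled peaks. The linker histone gene his-24 had one of 17.6 in replicate 1, 11.5 in replicate 2 and 26.0 in the pooled list, 638 bp from its start in the pooled list. Another was at the H3.3 gene his-74, with 12.2 in replicate 1, none in replicate 2 and 18.1 in the pooled list. All 3 genes have more than 1 exon and no repeated sequence in their promoter windows. The 1-exon genes of head-to-head pairs lie within the windows of their partners, so they could not be counted here. The exon number of these 3 is thus largely set by the counting rule. Over the 72 genes, 9 pooled summits lay inside a histone gene, and these 3 lay outside every histone promoter window. A further 9 pooled summits lay within 500 bp beyond the far end of a histone gene, 5 of them outside every histone promoter window. The same share over all genes was not computed, so these counts have no background beside them.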
